A study of Mus musculus with 25 samples.

Results

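All libraries of tumour-infiltrating CD8+ T cells that lacked Prdm1, whether or not they also lacked c-Maf, were set against all libraries that kept it. The 6 Prdm1-deficient libraries were 3 from mice with a conditional knockout of Prdm1 (Prdm1 cKO) and 3 from mice with a conditional double knockout of Prdm1 and c-Maf (cDKO). The 19 Prdm1-sufficient libraries were 16 wild-type and 3 c-Maf cKO, so that all 25 libraries of the study entered and were sorted by the genotype written in their column names. The cells came from B16F10 tumours, a melanoma line transplanted into C57BL/6 mice, and each library was made by an adapted SMART-Seq 2 protocol from a small bulk of cells, 2000 on average. The labels name neither the Cre line that removes the genes nor the animals, their ages or the pools behind each library, so the p-values measure the spread between these libraries, which may in part be technical. Each library is called by the code in its column name: A5, A6 and A9 are Prdm1 cKO, C2, A1 and A2 are cDKO, B10, B11 and C1 are c-Maf cKO, and the others are wild type.

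Prdm1 encodes Blimp-1, a zinc finger transcriptional repressor that drives terminal differentiation of plasma cells and effector T cells. In CD8+ T cells it is known to favour cytotoxic effector differentiation and expression of inhibitory receptors, and to oppose the memory programme around TCF-1. c-Maf, encoded by Maf, is a bZIP transcription factor that acts with Blimp-1 on co-inhibitory receptors of T cells.

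Genes were first ordered by separation: a gene separated the groups when all 6 deficient libraries lay on the same side of all 19 sufficient ones, and its gap was the distance between the nearest libraries of the groups in log2(value + 1). Among the 12251 genes tested, those with a value of at least 1 in at least 3 libraries, 47 genes separated the groups, which is 0.384% of them. Of these, 26 were higher without Prdm1 (0.212%) and 21 were lower (0.171%). The gap was narrow for most, with a median of 0.07 and only 4 genes at 0.5 or more: Gzmb, Prf1, Havcr2 and Fam101b. limma called 1999 genes at a Benjamini-Hochberg adjusted p under 0.05, 16.3% of those tested, with 769 higher (6.28%) and 1230 lower (10%), and its calls included all 47 separating genes, with a highest adjusted p of 0.00341. Higher genes made up 38.5% of these calls, but 87.3% (1705 higher, 249 lower) when libraries were rescaled to equal CD3 gene levels. The separation and the limma fit use the same libraries, so neither supports the other.

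Promoters are shown for the gene with the widest gap and for the separating genes whose promoter holds the core of the motif bound by Blimp-1. The windows are those of RefSeq on GRCm38.p6, from 250 bases before to 50 after the annotated start, 300 bases in all, and they are newer than the mm9 build named in the submitters' processing notes. The motif searched was AGNGAAAG on both strands, whose GAAA core is also part of the motifs of interferon regulatory factors. Capitals mark the motif, and in the Bach2 window it lies on the opposite strand and reads CTTTCCCT.
Gzmb, chr14:56262285-56262584, minus strand: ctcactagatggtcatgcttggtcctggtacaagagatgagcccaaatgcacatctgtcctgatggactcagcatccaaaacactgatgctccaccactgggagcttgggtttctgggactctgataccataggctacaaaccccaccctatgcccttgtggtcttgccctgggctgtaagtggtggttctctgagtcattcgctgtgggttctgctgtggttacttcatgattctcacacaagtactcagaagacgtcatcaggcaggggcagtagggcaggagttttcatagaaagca
Serpinb9b, chr13:33027164-33027463, plus strand: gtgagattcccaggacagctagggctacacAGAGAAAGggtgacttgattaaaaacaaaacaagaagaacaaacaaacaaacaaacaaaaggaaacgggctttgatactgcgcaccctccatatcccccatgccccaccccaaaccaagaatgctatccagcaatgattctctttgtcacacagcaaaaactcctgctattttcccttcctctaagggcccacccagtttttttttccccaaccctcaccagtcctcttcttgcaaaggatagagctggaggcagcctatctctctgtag
Bach2, chr4:32417185-32417484, plus strand: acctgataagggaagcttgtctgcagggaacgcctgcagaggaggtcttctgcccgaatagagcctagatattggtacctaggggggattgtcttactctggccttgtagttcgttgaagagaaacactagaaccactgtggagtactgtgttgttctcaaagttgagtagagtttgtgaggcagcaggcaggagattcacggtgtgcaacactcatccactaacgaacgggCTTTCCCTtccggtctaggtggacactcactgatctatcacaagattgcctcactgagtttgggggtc
Gramd4, chr15:86057445-86057744, plus strand: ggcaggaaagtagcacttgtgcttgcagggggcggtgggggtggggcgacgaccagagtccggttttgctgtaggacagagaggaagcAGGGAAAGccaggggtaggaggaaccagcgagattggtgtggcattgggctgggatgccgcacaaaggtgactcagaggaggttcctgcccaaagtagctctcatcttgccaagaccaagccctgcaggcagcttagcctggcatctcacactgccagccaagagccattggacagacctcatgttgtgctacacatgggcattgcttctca
Elk4, chr1:132008095-132008394, plus strand: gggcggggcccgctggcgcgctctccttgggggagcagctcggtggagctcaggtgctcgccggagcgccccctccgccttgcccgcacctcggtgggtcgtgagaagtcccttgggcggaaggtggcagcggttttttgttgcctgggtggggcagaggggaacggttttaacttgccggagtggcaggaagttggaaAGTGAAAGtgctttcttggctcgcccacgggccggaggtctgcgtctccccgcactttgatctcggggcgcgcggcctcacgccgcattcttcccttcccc
RefSeq windows were found for 39 of the 47 separating genes, 52 windows in all, and the motif was in 4 of them, 7.69%. Across the 32851 windows searched, 8.63% held it. The 4 genes were Serpinb9b, which was lower without Prdm1 and had its match 220 bases before the start, and Bach2, Gramd4 and Elk4, which were higher and had it 18, 162 and 51 bases before. Gramd4 and Elk4 have 3 windows each, of which only the 1 shown holds the motif. The Gzmb window above holds no match, and a match describes the letters only, not binding.

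The targeted gene separated the groups. Prdm1 was 4.71, 0.41 and 3.66 in A5, A6 and A9, and 4.69, 1.18 and 3.27 in C2, A1 and A2, in the deposited units. In the sufficient libraries it ranged from 6.45 to 24.85 with a median of 14.64, and the 3 c-Maf cKO libraries, at 14.44 to 20.31, lay within the wild-type range. The means were 2.99 ± 1.81 (SD, n = 6) and 15.7 ± 4.98 (SD, n = 19), and the exact permutation test of log2(value + 1) over all 177100 splits gave a two-sided p of 5.65e-06, the smallest it can give. With splits only inside the column sets described below it was 0.000149 over 6720 splits (exact permutation test). Which part of the gene is deleted is not given in the labels, so reads from an undeleted part would count as signal. Maf was near the floor in every genotype, at 0.19 ± 0.369 (SD, n = 6) in the c-Maf-deficient and 0.521 ± 0.331 (SD, n = 19) in the c-Maf-sufficient libraries (exact permutation p = 0.0293, two-sided), and C1, labelled c-Maf cKO, had 0.93. That p rose to at most 0.0702 when a library was left out, and Maf did not pass the filter for the fit across genes.

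Among the genes that fell, Gzmb and Prf1, both of the killing machinery, had the widest gaps. Gzmb, encoding the protease granzyme B, ranged from 5.68 to 47.33 with a median of 10.48 in the deficient libraries and from 114.16 to 1050.61 with a median of 460.65 in the sufficient ones. Its log2 fold change was -4.87 ± 0.41 (SE; limma adjusted p = 1.35e-07) and its gap 1.25. Every deficient library, A5 with the lowest value and C2 with the highest, was below the wild-type library with the least Gzmb, B3. Prf1, encoding the pore former perforin, ranged from 10.15 to 21.18 (median 14.93) against 41.64 to 549.16 (median 175.12), a log2 fold change of -3.46 ± 0.44 (limma adjusted p = 2.78e-05) with a gap of 0.94. The 6 deficient libraries were close together for Prf1, whereas the sufficient ones spanned a wide range. Serpinb9b, a serpin gene, was at most 0.83 in the deficient libraries and at 0 in 3 of them, against 1.27 to 147.78 (median 28.05), and its log2 fold change was -4.45 ± 0.63 (limma adjusted p = 9.22e-05). Sytl2, a Rab27 effector of granule secretion, ranged from 1.53 to 5.06 (median 3.58) against 6.62 to 17.26 (median 11.60), a change of -1.50 ± 0.19 (limma adjusted p = 9.99e-06). In bulk libraries, fewer cells that express a gene and less RNA per cell cannot be told apart.

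Havcr2 was the co-inhibitory receptor that separated the groups. It encodes TIM-3 and ranged from 1.11 to 7.76 (median 3.345) against 13.13 to 84.26 (median 45.51), with a log2 fold change of -3.23 ± 0.32 (limma adjusted p = 8.97e-07) and a gap of 0.69. Its values in A5, A6 and A9 were 6.78, 1.11 and 7.76, and in C2, A1 and A2 they were 3.04, 3.65 and 2.05. The other receptors of that class overlapped between the groups. Pdcd1, encoding PD-1, fell by 2.32 on the log2 scale (SE 0.39; limma adjusted p = 0.000327), but A5 had 138.88 and lay inside the sufficient range of 56.52 to 334.82, while the other deficient libraries were between 16.89 and 45.05. Lag3 fell by 2.82 (SE 0.41; limma adjusted p = 0.000102) and A5 was again apart, at 87.17 against at most 24.19 in the other 5. For both genes the other 5 deficient libraries lay below every sufficient one. A5 thus had the lowest Gzmb of all 25 libraries and, among the 6, the highest Pdcd1 and Lag3.

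Receptors, transport and chemokine genes made up a further group of separating genes that fell. Gpr65, a proton-sensing G protein-coupled receptor, had closely spaced values, 12.18 to 14.49 (median 13.63) in the deficient against 19.13 to 52.29 (median 31.58) in the sufficient libraries, with a log2 fold change of -1.18 ± 0.15 (limma adjusted p = 1.81e-05). Slc2a3, encoding the glucose transporter GLUT3, ranged from 4.87 to 13.04 (median 8.27) against 14.48 to 51.69 (median 31.46), a change of -1.76 ± 0.20 (limma adjusted p = 3.80e-06). Both sets of values stopped just short of each other, A5 being the highest deficient and B3 the lowest sufficient library for Slc2a3. Ccl4, the chemokine MIP-1β, ranged from 13.54 to 77.17 (median 49.38) against 84.36 to 507.84 (median 255.99), a change of -2.58 ± 0.36 (limma adjusted p = 6.23e-05). Ccl3, which encodes the related MIP-1α, fell by 3.36 (SE 0.53; limma adjusted p = 0.000207) without separating, and reads shared by such similar genes may have been split between them.

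Some of the separating genes that fell act in cell division. Stil, needed for centriole duplication, ranged from 0.52 to 1.76 (median 1.175) against 2.20 to 6.13 (median 3.80), a log2 fold change of -1.10 ± 0.17 (limma adjusted p = 0.000107). Prc1, which bundles microtubules of the spindle midzone, ranged from 4.82 to 13.09 (median 8.20) against 14.64 to 35.95 (median 19.87), a change of -1.23 ± 0.16 (limma adjusted p = 2.08e-05). Cenpw, of the kinetochore, fell by 0.61 (SE 0.12; limma adjusted p = 0.000833), and Mcm6, of the replicative helicase, fell by 0.96 (SE 0.16; limma adjusted p = 0.000144) with 42.61 to 58.49 against 59.00 to 149.00. The mitotic kinase gene Melk was also among the 21. The other 7 were Rae1, Sephs1, Raph1, Sept11, Snrpa, Slco4a1 and Arhgdia, which have no role in common here and gaps from 0.00343 to 0.0435.

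**Figure D1:**
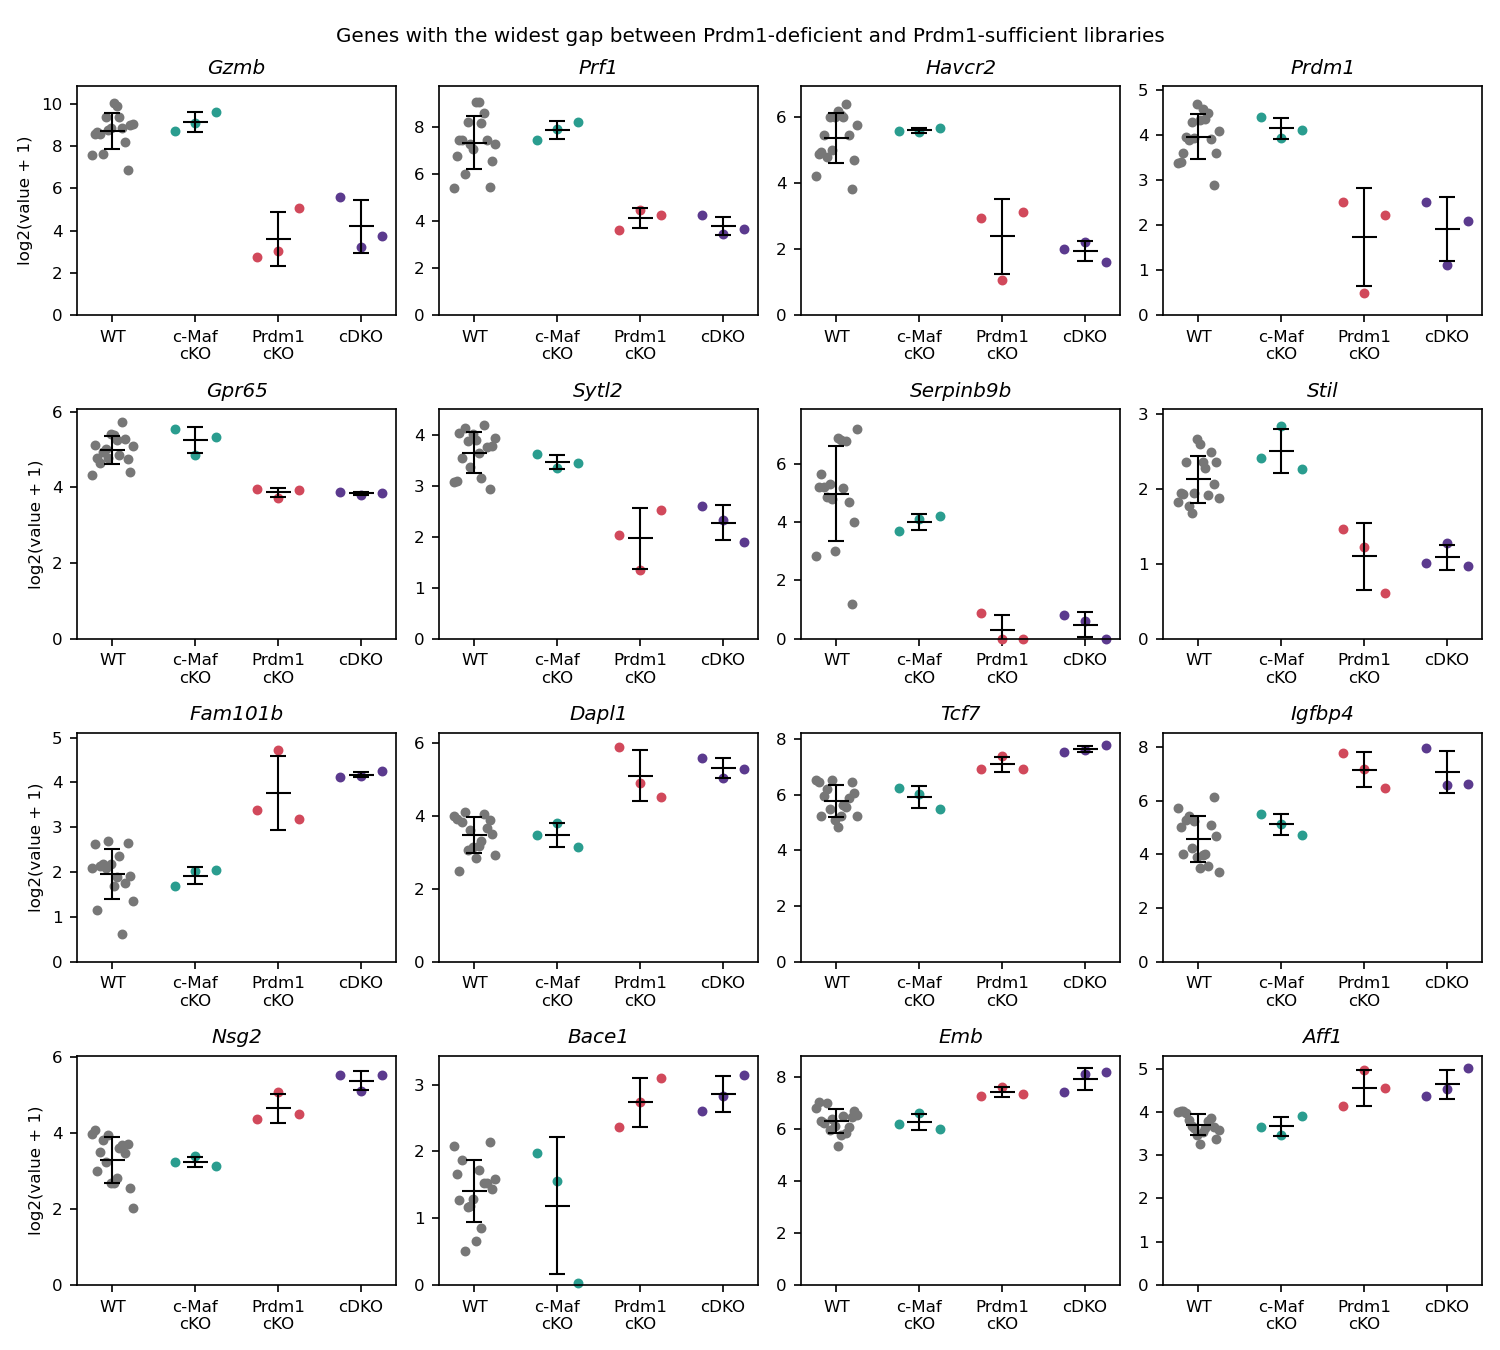
Value of each library as log2(value + 1) for the 8 lower and 8 higher genes with the widest gap, by genotype (16 WT, 3 c-Maf cKO, 3 Prdm1 cKO, 3 cDKO). Points are libraries, bars the mean and SD of each genotype. For Gzmb all 6 deficient libraries lie well under the lowest wild-type one, whereas for Aff1 and Emb the gap between the groups is small.

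Of the 20 naive, memory and stem-like genes, Tcf7 and Bach2 separated the groups. Tcf7, encoding TCF-1, the transcription factor of stem-like and memory CD8+ T cells, ranged from 121.89 to 218.46 (median 177.39) in the deficient and from 27.55 to 91.27 (median 58.58) in the sufficient libraries. Its log2 fold change was 1.57 ± 0.22 (limma adjusted p = 4.36e-05) and its gap 0.41. Its values were 121.94, 167.41 and 121.89 in A5, A6 and A9, and 187.37, 196.57 and 218.46 in C2, A1 and A2, so every cDKO library was above every Prdm1 cKO library, but the difference did not pass the test (0.56, limma adjusted p = 0.587). Bach2, a bZIP repressor that restrains effector differentiation, rose from 1.26 to 6.01 (median 3.17) to 6.34 to 10.61 (median 8.42), a change of 1.15 ± 0.19 (limma adjusted p = 0.000203). Other regulators of transcription and RNA were among the 26 as well. Zfp36l1, whose product binds AU-rich elements and promotes mRNA decay, had 114.99 to 160.28 against 42.66 to 107.31, a change of 1.0 ± 0.13 (limma adjusted p = 2.78e-05). Aff1, of the super elongation complex, rose by 0.89 (SE 0.13; limma adjusted p = 5.50e-05), and Elk4, an ETS factor, and Irf2bp2, a co-repressor, were also among the 26.

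Fam101b, Dapl1 and Igfbp4 were with Tcf7 the 4 genes with the widest gaps upwards. Fam101b, also named Rflnb and encoding the filamin-binding protein refilin B, ranged from 8.14 to 25.19 (median 16.60) against 0.54 to 5.42 (median 3.12), a log2 fold change of 2.01 ± 0.24 (limma adjusted p = 5.53e-06) with a gap of 0.51. Dapl1 ranged from 22.00 to 58.00 (median 35.145) against 4.66 to 16.26 (median 10.29), a change of 1.73 ± 0.21 (limma adjusted p = 5.53e-06). Igfbp4, encoding a secreted binder of insulin-like growth factors, ranged from 88.38 to 251.24 (median 120.805) against 9.04 to 69.44 (median 25.39), a change of 2.45 ± 0.36 (limma adjusted p = 9.22e-05). A9 was the lowest of the 6 for all 3 genes, whereas the highest was A6 for Fam101b, A5 for Dapl1 and C2 for Igfbp4. Nsg2 rose by 1.73 (SE 0.24; limma adjusted p = 3.37e-05), the protease gene Bace1 by 1.43 (SE 0.24; limma adjusted p = 0.000187) and the membrane glycoprotein gene Emb by 1.36 (SE 0.19; limma adjusted p = 3.27e-05). Sorcs2 was 0.62 to 1.68 against at most 0.51, so that it was tested only because of its level in the deficient libraries.

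Ribosomal protein genes were also among the 26, with small changes over high values. Rpl12 ranged from 1497.21 to 2459.77 (median 2149.49) against 949.35 to 1417.35 (median 1154.27), a log2 fold change of 0.74 ± 0.09 (limma adjusted p = 1.30e-05). Rpl5, Rpl23 and Rpl36a separated as well, with changes from 0.40 to 0.63, as did Gnb2l1, which encodes the ribosome-bound scaffold RACK1, at 0.30. Of all 79 cytosolic ribosomal protein genes in the table, a list added after these values were seen, 64 rose and 0 fell, with a median of 0.39. Over all genes 6.28% were called higher. Without the 3 cDKO libraries 15 of the 79 passed, all higher (median 0.27), and with the marker scores described below 47 did. In these settings 571 of 12103 and 998 of 12251 genes were called, 43.6% and 36.8% of them higher. Ribosomal protein genes have many near-identical processed copies, and Gm12191, a transcribed pseudogene that also separated, is uncertain for the same reason. The remaining separating genes that rose were Snhg12, Clcf1, Gramd4, Otud1, 2610019F03Rik, Kif1b and Cdk5rap1.

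At the edge of the rule the order rests on hundredths. Inside it, Slco4a1 had a gap of 0.00647, Arhgdia of 0.00343 and Cdk5rap1 of 0.00146. Just outside lay Actn4, where C2 at 65.23 exceeded the lowest sufficient value of 65.21, Nfkbiz, where A5 at 43.72 fell short of 43.81, and Cxcr6, where C2 at 56.67 exceeded 56.36. In all, 35 genes missed separation by less than 0.05, and 20 more were tied at a gap of 0 because all 6 deficient libraries and at least 1 sufficient library were at 0, among them the granzyme gene Gzme.

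**Figure D2:**
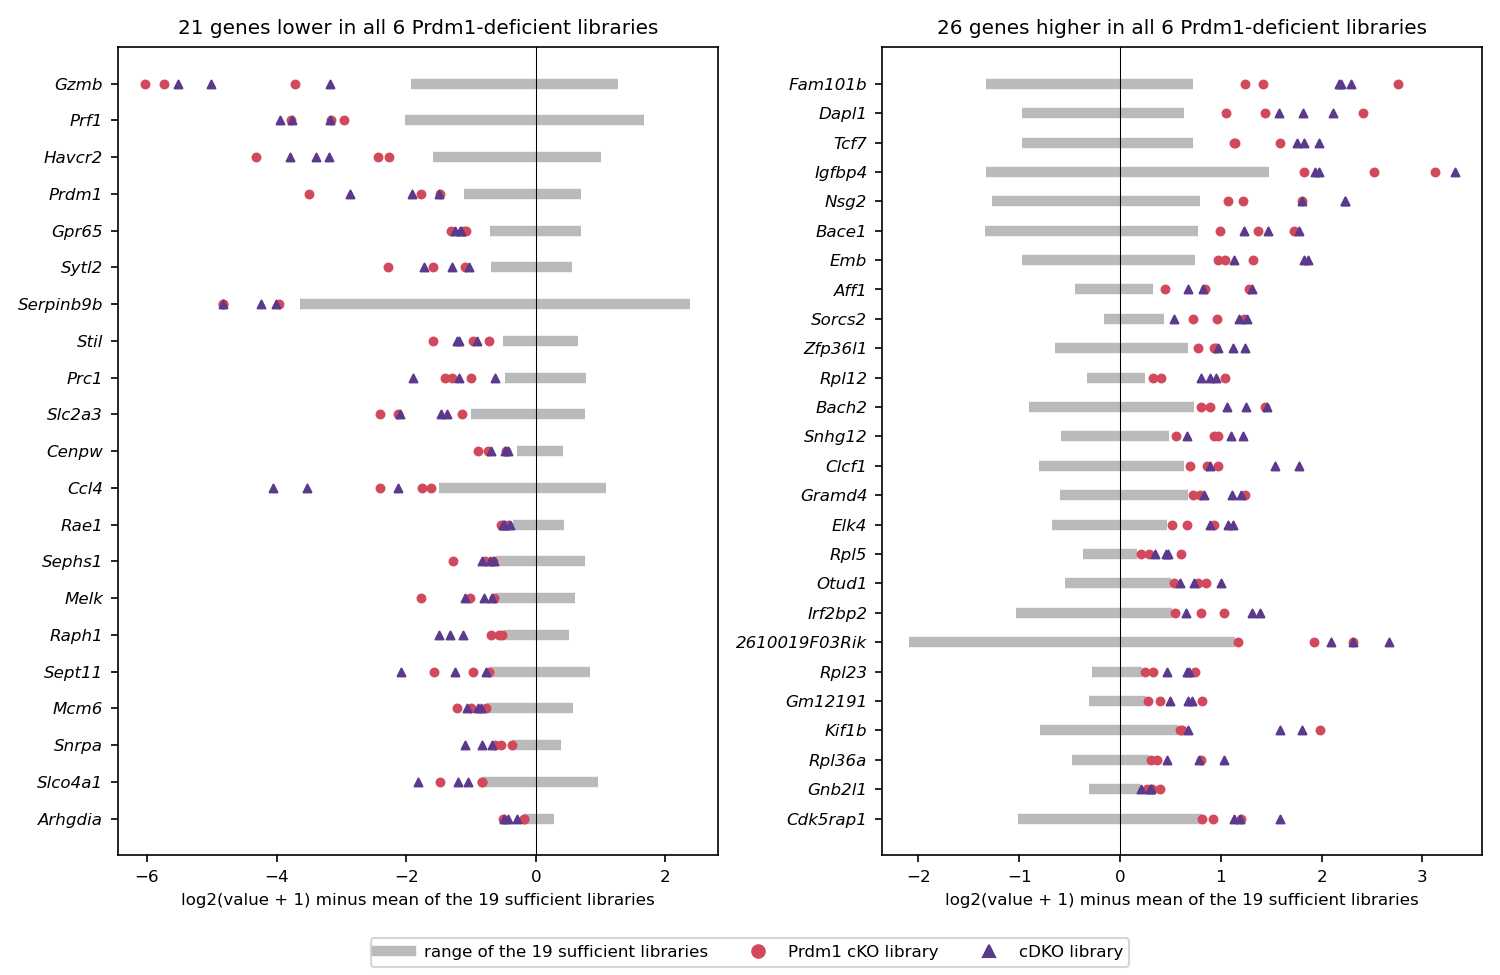
Each separating gene in log2(value + 1) relative to the mean of the 19 sufficient libraries: the bar spans the 19 libraries, circles are the 3 Prdm1 cKO and triangles the 3 cDKO libraries. Genes are ordered by gap, from Gzmb (1.25) and Fam101b (0.51) down to Arhgdia and Cdk5rap1, whose nearest libraries almost touch the bar.

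A few libraries set the edges. The deficient library nearest to the sufficient ones was a Prdm1 cKO library for 39 of the 47 genes and a cDKO library for 8. A5 was nearest for 22 and A9 for 14. A5 also had the highest Prdm1 of the 6 at 4.71, and C2, nearest for 3, had 4.69. On the other side B3 and A3 were nearest for 10 genes each and A4 for 8, so these 3 wild-type libraries set the edge for 28 genes, and they were the 3 with the lowest Prdm1 of the 19, at 6.45, 9.38 and 9.61. c-Maf cKO libraries set it for 2 genes. By scores from the marker genes described below, B3 had the lowest CD8+ T cell score of the 19, at 6.94. A3 came next at 7.48, against 7.78 in A4. B3 and A3 also had the highest melanoma scores of the 19, 7.41 and 6.67, against 4.79 in A4. B3 and A3 each set the edge for 7 lower and 3 higher genes, and A4 for 7 higher genes among its 8. A link of the edges with Prdm1 level or with these scores was not tested. Without A5, 177 genes separated the groups; without A9, B3 or C2 there were 80, 81 and 75.

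**Figure D3:**
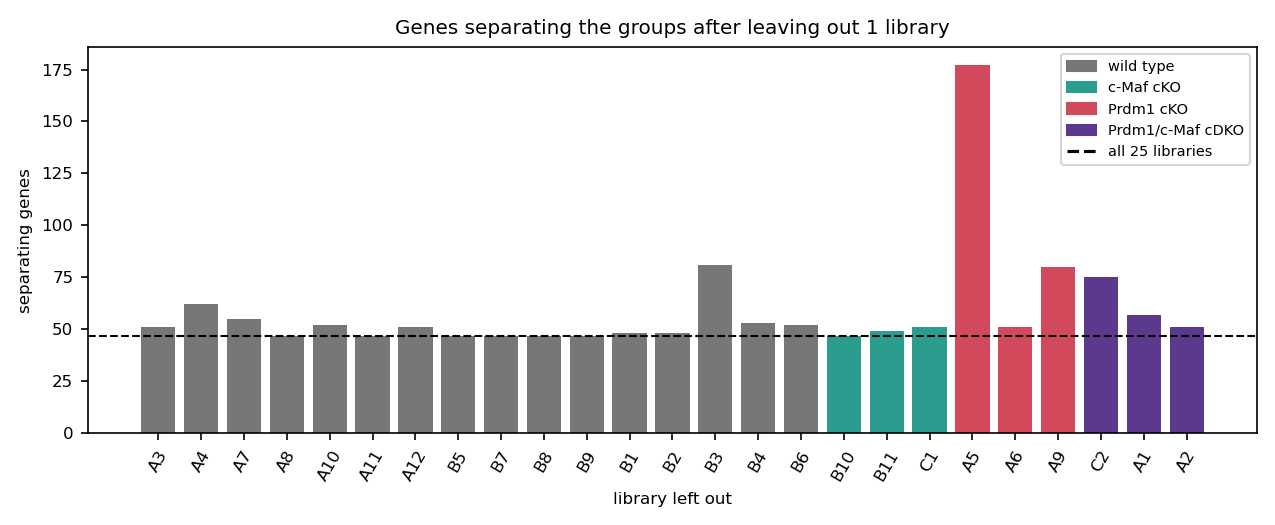
Number of genes separating the groups after leaving out 1 library, for each of the 25 (bars, coloured by genotype), with the 47 of all libraries as a dashed line. Leaving out A5 gives the most, 177, and B3 is the wild-type library with the most, 81.

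The c-Maf cKO libraries count among the 19 sufficient ones, so the rule itself puts them on the wild-type side of the separating genes. Within that limit, all 3 lay inside the wild-type range for 39 of the 47 genes. The share over all tested genes was not taken, so nothing is read from this count. In the fit with 4 genotypes, limma called 0 of all genes between c-Maf cKO and wild type (755 had an unadjusted p under 0.05, 1 of them among the 47), 423 between Prdm1 cKO and wild type (3.45%) and 1463 between cDKO and wild type (11.9%). Among the separating genes the last comparisons called 37 and 47; they share the 16 wild-type libraries and use the values by which the genes were chosen, so nothing is read from these counts. For Gzmb the changes against wild type were -5.10 in Prdm1 cKO and -4.51 in cDKO, for Prf1 -3.22 and -3.54, for Tcf7 1.31 and 1.87, and for Fam101b 1.80 and 2.21.

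The test of whether the effect of Prdm1 loss differed with c-Maf status called 1 gene of all tested (0.00816%) and 0 of the 47, of which 5 had an unadjusted p under 0.05, against 1436 of all genes. The gene was Retnla, a secreted product of alternatively activated macrophages, with an interaction of -6.08 ± 0.90 (SE; limma adjusted p = 0.00413), named here after its value was seen. It was at 31.32, 36.94 and 49.68 in A5, A6 and A9 and listed at 0 in all 3 cDKO libraries. Directly between cDKO and Prdm1 cKO, limma called 48 genes (0.392%), 8 higher (0.0653%) and 40 lower (0.327%) in cDKO, and 0 of the 47. Retnla and Mgl2 of the 14 macrophage markers were among the 40. The summed level of those 14 markers was 1437 to 4347 in the Prdm1 cKO, 155 to 245 in the cDKO and 54.3 to 2395 in the sufficient libraries. The sum of 10 dendritic cell markers was 1673 to 6932, 111 to 378 and 61.1 to 2854 in the same order, and the part of these cells in these calls was not tested. Both counts moved with single libraries, to 91 and 141 without A6, and both were 0 with the column set described below in the fit.

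The 3 mutant genotypes stand in different stretches of the table, each next to its own wild-type columns. Read from left to right, the columns fall into 3 runs: set 1 has 7 wild-type and the 3 Prdm1 cKO libraries, set 2 has 4 wild-type and the 3 c-Maf cKO, and set 3 has 5 wild-type and the 3 cDKO. The labels do not say what the sets are. Each genotype was therefore also compared with the wild type of its own set, which gave a pair of comparisons with no library in common. In set 1, limma called 33 genes (0.269%), and in set 3 it called 329 (2.69%). The genes called in both were 9, which is 27.3% of the first list and 2.74% of the second, and all 9 changed in the same direction. Gzmb, Gzma, Havcr2, Prdm1, Gpr65, Sytl2, Slc2a3 and the serpin gene Serpina3f fell in both, and Jun, of the AP-1 factor, rose in both.

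Within the sets Gzmb changed by -4.84 ± 0.54 in Prdm1 cKO (SE; limma adjusted p = 0.0141) and by -4.19 ± 0.65 in cDKO (limma adjusted p = 0.0208). Jun changed by 1.31 and 1.28. Tcf7 was higher by 1.03 ± 0.27 in Prdm1 cKO, which did not pass the test (limma adjusted p = 0.15), and rose by 1.80 ± 0.25 in cDKO (limma adjusted p = 0.0143). For Ccl4 the differences were -1.56 ± 0.42 (limma adjusted p = 0.18) and -3.19 ± 0.52 (limma adjusted p = 0.0208). Of the 47 separating genes, 9 passed in set 1 and 25 in set 3, on values by which these genes were chosen. Across all 12251 genes, which are not independent replicates, the changes of the 2 sets correlated with Pearson's r = 0.35 and Spearman's rho = 0.33, and 61.8% had the same sign. Genes whose 3 deficient libraries all lay on the same side of the wild type of their own set were 483 in set 1 (3.94%) and 1562 in set 3 (12.7%), and 109 did so in both sets and in the same direction (0.890%).

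**Figure D4:**
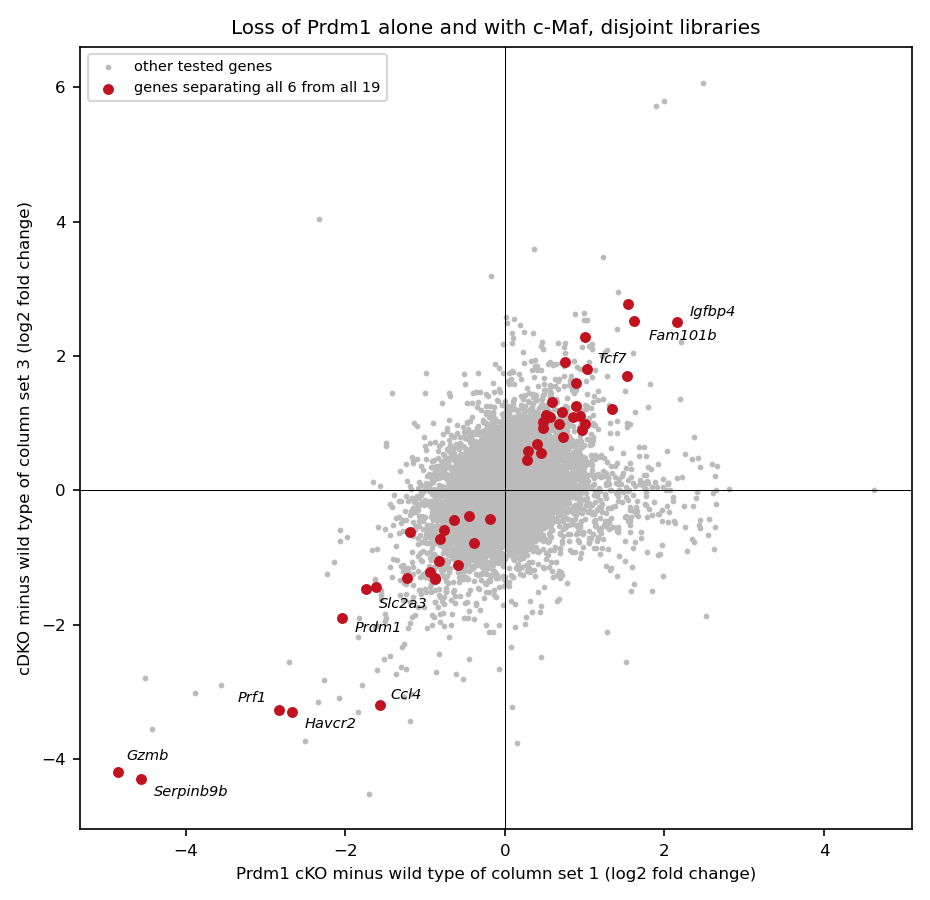
log2 fold change of each of the 12251 tested genes in Prdm1 cKO against the 7 wild-type libraries of set 1 (x axis) and in cDKO against the 5 of set 3 (y axis). The 47 separating genes are in red, with Gzmb at -4.84 and -4.19. The rule by which they were chosen itself places them in the lower left and upper right quadrants.

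Gene lists describe how far the change reached beyond the separating genes, and they are read against the 6.28% of all genes called higher, the 10% called lower and a median change over all genes of -0.00117. Of 19 cytotoxic effector genes, 14 fell and 1 rose, with a median of -1.61. Gzmc, Gzmf and Gzme, granzymes of a cluster with Gzmb, fell by 4.40, 4.28 and 3.60 on the log2 scale (limma adjusted p = 0.00271, 0.00737 and 0.00145), and Gzme was at 0 in all 6 deficient libraries. Their sequences are alike and counts may be shared. The gene that rose was Gzmm, by 1.70. Of 20 co-inhibitory receptors and ligands, 7 fell and 0 rose (median -0.60). For this list 6 fell and 1 rose after rescaling to equal CD3 gene levels (median -0.26). Without the cDKO libraries 5 of its genes fell and 1 rose, and its median was -0.10. Of 20 effector and exhaustion transcription factor genes, of which 19 were tested, 9 fell and 0 rose (median -0.50). Irf8 fell by 2.49, Tox by 1.43 and Tbx21, encoding T-bet, by 1.32 (SE 0.38, 0.32 and 0.29). Of 16 chemokine and chemokine receptor genes, 8 fell and 2 rose (median -1.09). Cxcr6, a receptor of tissue-resident T cells, fell by 2.86 (SE 0.34; limma adjusted p = 9.99e-06), and Ccr7, which guides them to lymph nodes, rose by 1.52 (SE 0.26; limma adjusted p = 0.000334).

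Of 20 naive, memory and stem-like genes, 16 rose and 0 fell, with a median of 1.32. Id3, an inhibitor of E proteins, ranged from 18.36 to 59.96 (median 35.48) against 3.90 to 31.87 (median 6.81) and rose by 1.91 (SE 0.31; limma adjusted p = 0.000212). Il7r, the interleukin 7 receptor, ranged from 37.52 to 98.64 (median 83.67) against 8.39 to 56.71 (median 20.62) and rose by 1.86 (SE 0.26; limma adjusted p = 5.67e-05). The groups overlapped for both genes, for Il7r only through A5. Il6ra, of the interleukin 6 receptor, rose by 1.78 (SE 0.36; limma adjusted p = 0.00113). Of 15 genes known as repressed by Blimp-1 in plasma cells or T cells, 14 were tested, 9 rose and 1 fell, with a median of 0.91. The one that fell was Ifng, by 1.85 (SE 0.40; limma adjusted p = 0.0027), and 7 of the 9 that rose, among them Tcf7, Bach2, Id3 and Ccr7, are also in the memory list. Of 13 tissue residency and egress genes tested, 7 rose and 2 fell (median 0.65).

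Division genes fell as groups: 15 of 18 S phase genes and 17 of 20 G2 and M phase genes, with 0 higher in either list and medians of -0.80 and -0.84. Cdc45 fell by 1.65, Mcm5 by 1.10, Nusap1 by 1.36 and Ccnb2 by 0.99. When libraries were rescaled to equal CD3 gene levels, which moved the median of all genes to 0.30, 5 and 6 genes of these lists fell. Their medians were then -0.41 and -0.47. Over all genes 1954 of 12460 were then called, 87.3% of them higher, against 38.5% without the rescaling. Co-stimulatory receptors had 5 of 11 lower and 0 higher, led by Tnfrsf9, encoding 4-1BB, at -2.64 ± 0.38 (limma adjusted p = 9.22e-05) and Tnfrsf4, encoding OX40, at -1.94 ± 0.45 (limma adjusted p = 0.00415). Their median turned from -0.32 to 0.07 under the CD3 rescaling. Cytokine receptors went both ways: 4 of 14 rose, with Il7r and Il4ra (1.29 ± 0.18) first, and 5 fell, with Il2ra (-1.64 ± 0.29) first, and their median turned from -0.14 to 0.25. Of the ectonucleotidases, inhibitory cytokines and their receptors, Entpd1, encoding CD39, and Il10ra fell by 2.46 and 1.42, and Nt5e, encoding CD73, rose by 1.42 (SE 0.34, 0.24 and 0.26), while the other 9 of 12 did not pass the test. Of 16 AP-1, immediate early and heat shock genes 6 rose and 0 fell (median 0.55), led by Jun at 1.45 ± 0.23 (limma adjusted p = 0.000166).

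The remaining lists had at most 4 calls each, beside 6.28% of all genes called higher and 10% called lower. Of 16 glycolysis genes 4 were lower, with a median of -0.22 that turned to 0.17 under the CD3 rescaling. Killer cell lectin-like receptors had 3 of 13 lower and interferon-stimulated genes 3 of 14 higher. Effector cytokines had 1 of 7 in each direction, and the last list was Blimp-1's co-repressors and chromatin partners. Of these last, 1 of 10 fell, Hdac1, at -0.80 ± 0.19 (limma adjusted p = 0.004). Under the CD3 rescaling the median turned from -0.10 to 0.23, and Hdac1, at -0.40, did not pass (limma adjusted p = 0.062). In that setting and without the cDKO libraries 0 genes of the list were called.

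Several list counts moved when markers of other cell types entered the fit. With macrophage, erythroid and melanoma scores, calls over all genes were 998 of 12251, 36.8% of them higher, against 1999 without scores. Of 16 glycolysis genes 10 were then lower (median -0.47), and 2 of the AP-1 list were higher (median 0.20). The killer cell lectin-like receptors and the interferon-stimulated genes then had 0 calls, with medians of -0.51 and -0.00173. S phase genes had 9 lower and G2 and M phase genes 8, with medians of -0.78 and -0.91, while cytotoxic genes had 11 lower (median -1.69) and naive, memory and stem-like genes 14 higher (median 1.38). Residency and egress genes had 4 higher, cytokine receptors 2 lower, effector and exhaustion transcription factors 6 lower, and the Blimp-1-repressed list 6 higher and 0 lower.

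List counts were also taken with the 3 Prdm1 cKO as the only deficient libraries, which leaves fewer samples. Over all genes 571 of 12103 were then called, 43.6% of them higher, against 1999 of 12251 with the double knockout. In the lists, 6 memory genes were higher (median 1.037) and 10 cytotoxic genes lower (median -1.61). There were 3 effector and exhaustion transcription factors and 4 G2 and M phase genes lower. Glycolysis genes then had 1 lower, co-stimulatory receptors 2 lower, chemokine genes 6 lower and 0 higher, and residency genes 1 higher. The Blimp-1-repressed list had 4 higher and the AP-1 list 2 higher. Cytokine receptors had 2 higher, and the lectin-like receptors had 0 calls.

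**Figure D5:**
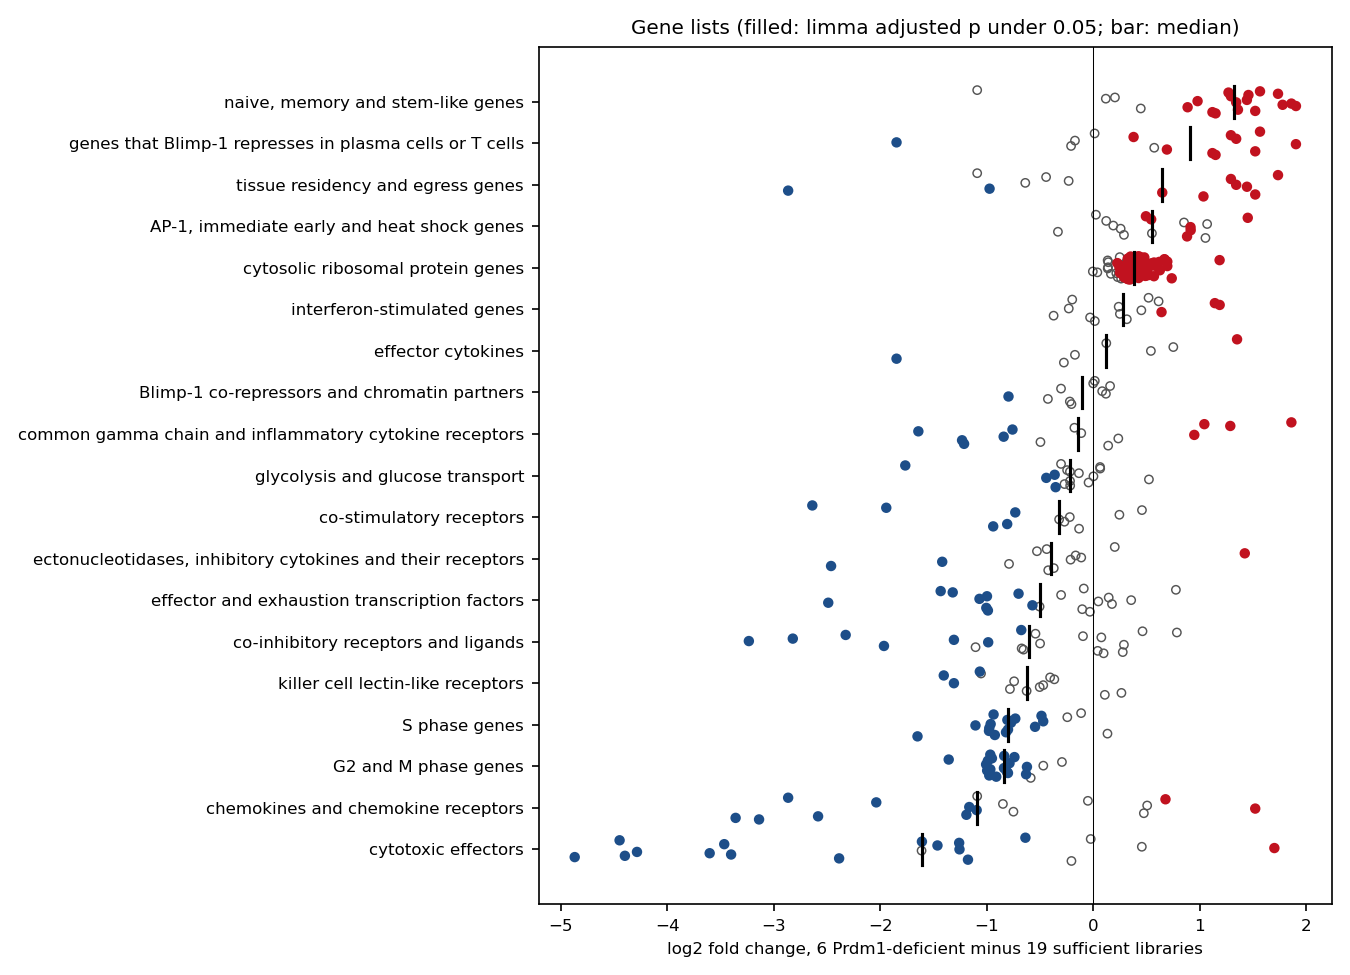
log2 fold change of each tested member of the gene lists in the 6 Prdm1-deficient against the 19 sufficient libraries. Filled points passed limma's adjusted p of 0.05 (red higher, blue lower), open points did not, and the bar is the list's median, from -1.61 for cytotoxic effectors to 1.32 for naive, memory and stem-like genes.

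Markers of the labelled cell type were present in every library: the summed level of 8 CD8+ T cell genes was 1308 to 2495 in the deficient and 1144 to 3240 in the sufficient libraries, though Cd3g, Cd8a and Thy1 were called lower. Markers of other cells were present too. Among the called genes, 4 haemoglobin genes had the largest increases, Hbb-b1 at 4.40 ± 1.06, Beta-s at 3.63 ± 1.0, Hba-a1 at 3.47 ± 0.99 and Hba-a2 at 2.71 ± 0.88 (limma adjusted p = 0.0058, 0.0145, 0.0181 and 0.037), and the sum of 6 erythroid markers was 221 to 4240 against 1.38 to 1568. Near-identical globin copies make the split between them uncertain, and Beta-s and Hba-a1 turned to slightly negative differences when marker scores entered the fit. Sums of 5 B cell markers were 8.47 to 12.6 against 0.37 to 9.85, and single B cell markers are not given here. Sums of 11 melanoma markers were 127 to 1735 against 8.97 to 3948, and 0 of these 11 were called. When macrophage, erythroid and melanoma scores were added to the fit, 998 genes were called, 876 of them also without the scores, and 44 of the 47 separating genes. With the column set in the fit, 1257 genes were called, 1170 of them also without it, and all 47 separating genes passed. With set and scores together 296 were called and 31 of the 47 passed. The 47 were chosen by values of these same libraries, so their passing is no separate support.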

How the data were processed

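RNA of 25 libraries of tumour-infiltrating CD8+ T cells was sequenced, and 1 table of 23366 gene symbols was used. Its deposited values are a signal normalised by the authors on a scale not given in the sources used here. TopHat, RSEM, DESeq and mm9 are named, without versions or order, per the submitters' processing notes. The values are not counts, so sequencing depth is unknown and no counting interval is given. Column totals run from 389650 to 475956, 12749 to 15161 genes were above 0, and 1933 symbols were at 0 everywhere. Columns were assigned to genotypes, not to single samples, by their names.

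Values were taken as log2(value + 1), which understates changes of low genes. The fit, on genes that reached a value of 1 in 3 or more libraries, used limma 3.58.1 (R 4.3.3, trend and robust empirical Bayes, no covariate), with p-values adjusted over all 12251 by Benjamini-Hochberg. The scripts were tested on simulated data. Genes named are Prdm1 and Maf, the 12 separating genes with the widest gap in each direction, the 5 called with the largest change in each direction, the 3 just inside and just outside the rule, and, of each list, separating members and at most 3 called members with the largest change; others are named only to account for every separating gene or after their values were seen, and some genes under the rule are not reported here. The members and gene lists were chosen with earlier results of these data known, and the ribosomal list after these values were seen. Alternatives were other pseudocounts (0.1 and 10), filters, rescalings, controls and covariates, and each library left out.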

Additional observations from a re-analysis of the deposited data

Results flagged for a closer look

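In the 6 Prdm1-deficient libraries, each of the 84 named genes was examined on log2(value + 1) for a library lying apart. Its distance to its nearest neighbour had to exceed Dixon's 95% critical share of the group's range. Chance gives this for about 1 gene in 20. There were 5 such genes, close to that rate. Below, values are in the deposited units and shares of the range are on the log2 scale. A5 lay apart in 3 of them: Tox, the exhaustion-associated factor, was 47.96 in A5 against 10.09 to 15.49 in the others (0.733 of the range), Tnfsf8, encoding CD30 ligand, was 2.08 against 6.54 to 11.39 (0.643), and Nt5e was 7.95 against 16.22 to 22.15 (0.689). C2 was highest for the co-stimulatory receptor gene Cd226, at 32.89 against 14.50 to 17.94 (0.744), and A9 for the interferon-stimulated gene Oas2, at 8.05 against 3.45 to 4.33 (0.746).

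Retnla was the gene for which the effect of Prdm1 loss differed with c-Maf status by the interaction test (-6.08, limma adjusted p = 0.00413). Its group means were 0.621 in wild type, 39.3 in Prdm1 cKO, 3.80 in c-Maf cKO and 0 in cDKO.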

How the results depend on the processing

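The values carry no counts, so no depth can be set beside them, and the column sets cannot be told apart from genotype among the deficient libraries. The 47 separating genes were chosen by the values of these same libraries, so their passing in refits is no separate support. All passed limma's threshold under every alternative listed in advance that tested them, except the CD3 rescaling and the marker scores. After the CD3 rescaling 43 passed, without Cenpw, Arhgdia, Snrpa and Rae1. With the marker scores 44 passed, without Kif1b, Otud1 and Gnb2l1. With column set and scores together, a setting chosen after seeing the data, 31 of 47 passed, and Ccl4, Stil, Cenpw, Elk4 and Sorcs2 were among the 16 that did not. Without the cDKO libraries 39 of the 46 tested passed, and without the Prdm1 cKO libraries 45 of 46. A filter at 10 in place of 1 tested 41 of them. No paired analysis was possible because the columns carry no replicate numbers. The cause of each change below was not tested, except that settings with fewer libraries separate more genes by construction.

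Calls numbered 1257 with column set, 998 with marker scores, and, in settings chosen after seeing the data, 571 without the cDKO libraries and 296 with column set and scores together. Higher calls were 1705 after CD3 rescaling (249 lower, so 87.3% were higher, against 38.5%), 367 with scores, 249 without cDKO and 156 with set and scores. Lower calls were 709 with column set, 631 with scores, 322 without cDKO and 140 with set and scores. Leaving out 1 library gave 1346 (A2) to 2264 (B3) calls, 536 to 891 higher and 810 (A2) to 1406 lower. Separating genes were 22 (13 higher, 9 lower) after CD3 rescaling, 10 of them also without it, 4 (1 and 3) at a gap of 0.5, 109 (57 and 52) within column sets, 595 (351 and 244) without the Prdm1 cKO and 161 (79 and 82) without the cDKO libraries. Leaving out 1 library gave 47 to 177 (A5), 26 to 100 higher and 21 to 77 lower. The Prdm1 difference stayed between -2.31 and -1.91, and that of Maf between -0.51 and -0.33, with an exact permutation p of 0.0702 without B10, B11 or C2 and 0.0645 without A2.

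Interaction calls were 21 and 15 with pseudocounts 0.1 and 10, 0 with column set, and 1 to 91 (A6) with 1 library left out, above 1 also without A7 (20), A9 (8), A10 (14), A11 (12), B3 (9), B6 (17), B7 (12), B11 (2) and C2 (29). Calls between cDKO and Prdm1 cKO were 103 with pseudocount 10, 0 with column set, and 3 (A2) to 141 (A6), with 76 without A7, 82 without B3, 15 without A1 and 11 without A5 or A9. With set as a term these comparisons rest on its additivity. Of the 83 named genes tested, 31 passed under all alternatives. Signs turned for Actn4 (0.0659), Arhgdia (0.050) and Pfkp (0.0338) after CD3 rescaling, for Beta-s (-0.0340) and Hba-a1 (-0.17) with scores, and for Hba-a2 (-0.65) with set and scores.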
